A study of Homo sapiens with 6 samples.

Results

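Single-exon protein-coding genes are transcription units (TUs) whose counted transcript is a single uninterrupted exon. They were taken from GENCODE as protein-coding genes whose counted transcript had 1 exon and spanned more than 1500 bp. Of 647 single-exon protein-coding transcripts of any length, 418 passed that length limit. A further 34 were set aside because they belong to the olfactory receptor, HOX, MAGE, histone, ZNF, FBXO, FBXL or USP families, lie on the Y chromosome, or are JUN, JUNB, JUND, IER2, IER5 or PCBP1. This left 384 members among 37339 counted transcripts matched to the annotation, next to 18385 protein-coding transcripts with 2 or more exons. For 318 members no spliced transcript of the gene is annotated, and for 66 a spliced transcript also exists.

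Nascent transcription was measured in K562 cells, a human chronic myelogenous leukaemia line, with 2 PRO-seq libraries, and steady-state RNA with 4 rRNA-depleted total RNA-seq libraries of the same untreated cells. PRO-seq maps RNA polymerases that are engaged in transcription, and the question was how RNA level relates to transcription rate. The paper names as a limit that the PRO-seq level depends on elongation rate as well as on transcription rate. Transcription below stands for this level, and a steady state is assumed. What elongation rate adds to the members' values was not tested. The relative half-life of a TU is the ratio of its steady-state to its nascent level, each in TPM (counts scaled for length and for the size of the library), on a log2 scale with the median mRNA at 0. It was computed where the nascent level exceeded 10 TPM and the steady-state level 1 TPM, the thresholds used throughout. A value of 0 does not mean equal TPM in the 2 assays. C1orf174, an mRNA at 0, had 39.1 TPM in RNA-seq and 60.8 TPM in PRO-seq. Per the study's methods the cells were from 1 flask, so p-values measure the spread between these libraries, which is technical and not that between cultures.

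Most human genes are interrupted by introns. During splicing, proteins are left on the mRNA near exon junctions, and they take part in export, translation and quality control; an RNA that was never spliced lacks these marks. Intronless genes include many regulators with brief expression, such as SOX and forkhead transcription factors, seven-transmembrane receptors, and retrocopies, which are genes that arose when a spliced mRNA was copied back into DNA.

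The libraries held 5732780 to 9002746 counts on TUs for RNA-seq, and 6993816 and 7245632 for PRO-seq. Members took 0.521% to 0.528% of the RNA-seq counts and 0.143% and 0.136% of the PRO-seq counts. Without MT-CO1 and MT-ND5, the 2 members of the mitochondrial genome, the shares were 0.455% to 0.465% and 0.0889% and 0.0912%. Erythroid markers fixed for the line were present, with NFE2 at 241 TPM and HBG2 at 6287 TPM in RNA-seq. Those lymphoid and fibroblast markers that were counted stayed at 0.324 TPM (CD3E) or less, whereas EPCAM, listed as epithelial, stood at 120 TPM. RNA-seq replicates 1 and 3, and 2 and 4, were close pairs, with a chi-square per degree of freedom over TUs of 1.13 and 1.12 against 1.74 to 2.13 for the other pairs, and each pair still differed beyond sampling noise.

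The 250 bases upstream of the annotated start show the kind of DNA from which these genes are transcribed, and 3 are given because the RNA or PRO-seq results below turn on them. C6orf47 had the highest PRO-seq TPM of the nuclear members, and LCMT2 and NRARP were among the members with the least RNA per unit of transcription. Sequences are from RefSeq on GRCh38.p14, read along the coding strand. The windows lie at chr6:31660779-31661028 (-) for C6orf47, chr15:43330574-43330823 (-) for LCMT2 and chr9:137302272-137302521 (-) for NRARP. Capitals mark 3 motifs of core promoters, each searched on both strands with overlaps counted. The TATA motif was spelled TATAAA. For the motif of the factor NF-Y the letters were CCAAT. The GC box bound by SP1 was spelled GGGCGG.
C6orf47: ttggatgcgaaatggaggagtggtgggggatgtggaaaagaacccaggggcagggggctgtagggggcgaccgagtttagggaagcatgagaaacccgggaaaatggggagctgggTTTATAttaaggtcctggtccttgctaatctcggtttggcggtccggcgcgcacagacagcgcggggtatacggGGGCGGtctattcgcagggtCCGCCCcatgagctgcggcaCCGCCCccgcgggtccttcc
LCMT2: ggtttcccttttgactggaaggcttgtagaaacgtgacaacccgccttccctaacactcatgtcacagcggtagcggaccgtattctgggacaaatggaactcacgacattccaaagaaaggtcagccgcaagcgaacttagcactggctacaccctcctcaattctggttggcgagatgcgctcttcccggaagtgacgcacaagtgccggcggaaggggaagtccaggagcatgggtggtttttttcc
NRARP: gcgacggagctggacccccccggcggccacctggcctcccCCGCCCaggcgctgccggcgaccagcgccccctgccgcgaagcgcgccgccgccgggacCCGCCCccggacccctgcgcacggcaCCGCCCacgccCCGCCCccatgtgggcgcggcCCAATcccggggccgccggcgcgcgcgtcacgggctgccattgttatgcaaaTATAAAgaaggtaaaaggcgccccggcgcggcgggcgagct

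Of the members past the thresholds, 74 of 93 matched the promoter table. A GC box was found upstream of 68.9% of them, the NF-Y motif of 40.5% and a TATA motif of 6.76%. Among mRNAs with 2 or more exons past the same thresholds the shares were 70.2%, 36.5% and 4.56%, and in the whole set of 27305 promoters they were 42.3%, 33.0% and 11.1%. Median GC content of the window was 65.2% in the members past the thresholds and 65.2% in the mRNAs with 2 or more exons. A match is a run of letters, not a bound factor.

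A second set of sequences concerns the 3′ end. AU-rich elements are short runs in the 3′ UTR that bind decay factors in some mRNAs. The overlapping pair of pentamers ATTTATTTA was present in the transcript of 11 of the 93 members past the thresholds (11.8%) and of 619 of 8606 mRNAs with 2 or more exons (7.19%). A selection of 6 of the 11 members is shown with the element in capitals, in order of rising half-life. CHST14 and MGAT2 are of the same role (GENCODE transcripts on GRCh37, in the sense of the mRNA).
LCMT2: ttggttccatATTTATTTAgatttataag
CHST14: tttctgatgcATTTATTTAaaatttgtac
RHOB: atgttatttgATTTATTTAaaggctaaaa
EXOSC6: tatttattttATTTATTTAttaattattt
MGAT2: gtacagcaaaATTTATTTAaaactgtcat
EXOC8: taactgaaatATTTATTTAgatttcaggg
Log2 half-lives of all 11 ran from -3.30 for LCMT2 to 0.40 for EXOC8. The median was -1.38 in the 11 members with the element and -1.63 in the 82 without it. In mRNAs with 2 or more exons it was -0.35 with the element and 0.05 without it, and the transcripts that held it were also longer (median 5632 against 2951 bases). Members with the element were found on both sides of the median mRNA. The 93 members past the thresholds ran more widely, from -5.85 to 3.40.

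Many single-exon genes had few or no counts in K562 cells. At least 1 RNA-seq count was found for 78.4% of the members and at least 1 PRO-seq count for 50.8%, against 85.5% and 89.6% of mRNAs with 2 or more exons. In the 336 members not covered over 90% on the same strand by another counted transcript, the shares were 79.2% and 57.7%. No count in any library was seen for 69 members, and 208 had fewer than 10 counts over the 6 libraries. All 14 protocadherins, adhesion molecules of neurons, and all 10 helix-loop-helix factors, which specify cell lineages, were in this low set, and so were 25 of 37 seven-transmembrane receptors. Above 10 TPM in PRO-seq were 108 members (28.1%), of which 93 also passed in RNA-seq (24.2% of all members). Of those 336 members 27.7% passed both thresholds. The corresponding share past both thresholds was 46.8% for mRNAs with 2 or more exons and 39.4% for those with a span over 1500 and up to 10000 bp, so the members that could be given a half-life are a smaller fraction of their class.

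Members that lay under another counted transcript of the same strand had almost no nascent counts. As background, HTSeq sets aside a read that falls on more than 1 counted feature as ambiguous, and PRO-seq was counted along the span of a TU, introns included, apart from the 500 bp at each end. Over 90% of the span of 48 members was covered on the same strand by another counted transcript. Of these 48, 35 had RNA-seq counts, 12 with at least 100, and only 1 (HLX, with 1 count) had any PRO-seq count. CCDC71L had 2404 RNA-seq counts, SPIN4 1285 and CHMP1B 1527, and all had 0 PRO-seq counts. CHMP1B, a subunit of the ESCRT-III membrane-remodelling complex, lies inside GNAL. Over whole libraries, ambiguous reads made up 0.943% and 0.819% of the PRO-seq counts and 1.53% to 1.65% of the RNA-seq counts. None of the 48 could be given a half-life, and how many of their PRO-seq reads were set aside was not tested. Of 61 members that were covered over 90% on the opposite strand alone, 29 had PRO-seq counts. Among those with at least 100 RNA-seq counts, PRO-seq counts were found in 17 of 17 covered on the opposite strand and in 0 of 12 covered on the same strand.

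The 93 members past the thresholds had less RNA for their PRO-seq level than other mRNAs. Their median log2 half-life was -1.63, a ratio 0.324 of that of the median mRNA, with quartiles of -2.17 and -0.58 and a range from -5.85 to 3.40. Combining single libraries, 1 RNA-seq with 1 PRO-seq, gave medians from -1.60 to -1.47 over the 8 combinations, and the SD over libraries of the median was 0.11. The median was 0.02 in 8606 mRNAs with 2 or more exons, and 0.11 in 1546 of these with a span over 1500 and up to 10000 bp. It was -1.09 with 2 exons, -0.27 with 3 exons and 0.09 with 4 or more. Members therefore lay at the low end of a series that rose with exon number, and short spliced genes as a group had a median near that of all mRNAs.

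**Figure D1:**
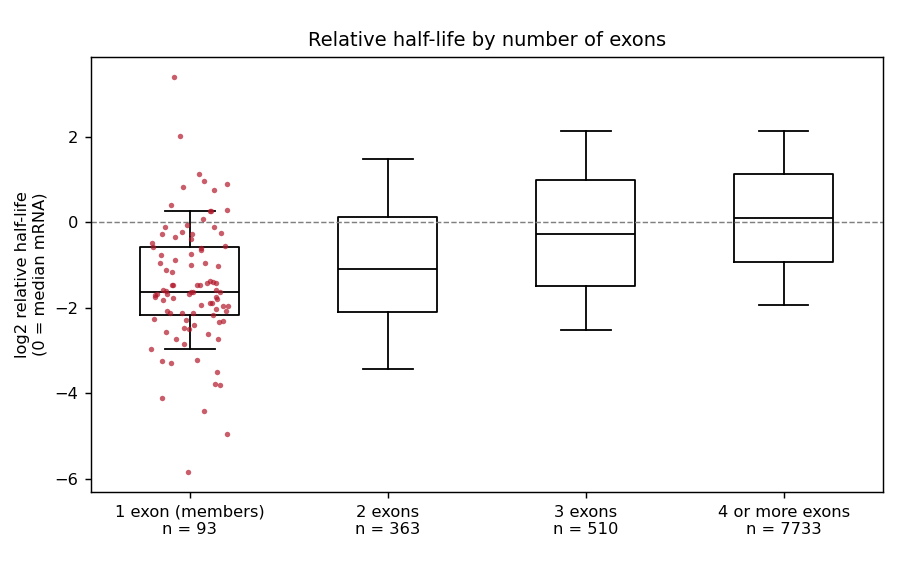
Log2 relative half-life (y axis, 0 is the median mRNA) of the 93 members and of mRNAs with 2, 3 and 4 or more exons (x axis). Boxes give the quartiles and median, whiskers the 10th and 90th percentiles, and red points are the members; the medians stand at -1.63, -1.09, -0.27 and 0.09.

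Members past the thresholds had a median PRO-seq level of 66.4 TPM and a median RNA-seq level of 14.2 TPM, against 47.3 and 31.4 TPM for mRNAs with 2 or more exons. For those with a span over 1500 and up to 10000 bp the median PRO-seq level was 64.7 TPM and the median RNA-seq level 46.0 TPM. Next to spliced genes within that limit the members' RNA-seq level was the lower one and the PRO-seq level was close. The 2 groups were not matched in length. Median span was 5928 bp in these spliced genes and 3051 bp in members, and median exon length 1791 and 3051 bp. With edgeR's quasi-likelihood test of RNA-seq against PRO-seq, 72 members (77.4%) lay below the median mRNA and 7 (7.53%) above it at an adjusted p under 0.05, and 14 were not called. Among all 9929 TUs tested, 50.0% were called below and 40.4% above. When a difference of more than 2-fold was tested, 56 members lay below and 2 above (EID1 and UQCRHL), beside 29.2% and 21.5% of all TUs. With replicates 1 and again with replicates 2 of both assays, 70 members lay below 0 and 15 above it. In those 2 settings 0 was the median of all mRNAs with a count in both assays, without the TPM thresholds. It is therefore not the same 0 as in the calls above. The median spread over libraries was 0.25 log2 units for members and 0.13 for all mRNAs.

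**Figure D2:**
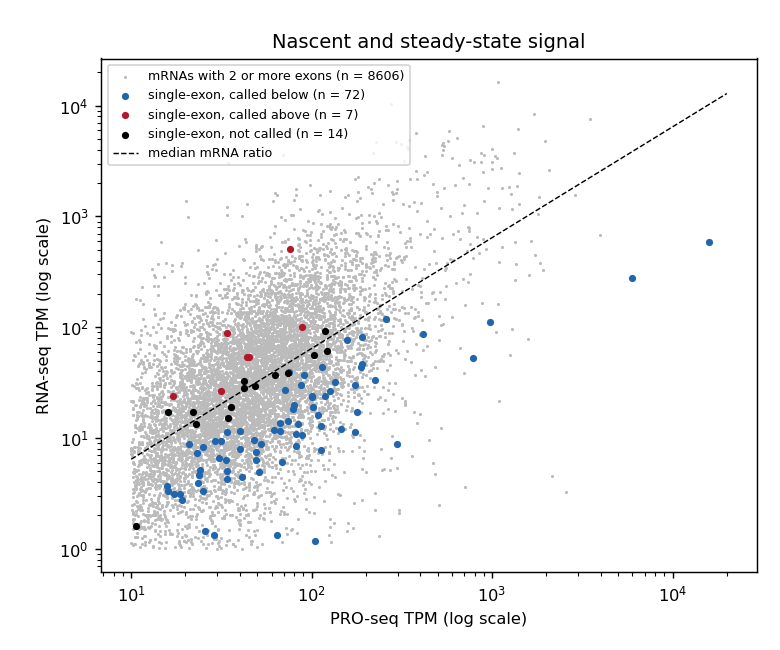
PRO-seq TPM (x axis, log scale) against RNA-seq TPM (y axis, log scale) for 8606 mRNAs with 2 or more exons (grey) and the 93 members, coloured by the edgeR call. The dashed line is the ratio of the median mRNA; 72 members were called below it, 7 above it and 14 not called.

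Members also had the lower median within each bin of length, GC content and transcription. Members spanning 1500 to 2000 bp had a median of -0.77 (15 members), and those of 2000 to 3000 bp -1.73, of 3000 to 5000 bp -1.47 and of 5000 bp and more -1.77. Spliced mRNAs of the same mRNA lengths had medians of 0.58, 0.26, -0.12 and -0.57. At a GC content of the transcript under 45% the medians were -1.09 for members and 0.32 for spliced mRNAs, and at 55% and more they were -1.65 and -0.36. In members with 10 to 40 PRO-seq TPM the median was -1.52, with 40 to 100 it was -1.63 and above 100 it was -1.73, whereas spliced mRNAs stayed between -0.06 and 0.06. Spearman's rho between half-life and span over the 91 nuclear members was -0.16, and with GC content -0.14, given as a description over points that share libraries and length scaling. Rank order was similar with replicates 1 and replicates 2 (rho 0.90 over 92 members).

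The members with the least RNA per unit of transcription were PSPN, FOXD4 and NRARP. PSPN encodes persephin, a neurotrophic ligand of the GDNF family. Its RNA-seq TPM was 1.25, 1.31, 0.685 and 1.28 and its PRO-seq TPM 93 and 116. The log2 half-life was -5.85 (spread 0.50), with an edgeR adjusted p of 4.6e-21. All 4 RNA-seq libraries lay far below the 2 PRO-seq libraries, from 62 and 159 counts in all. Another counted transcript overlaps PSPN on the opposite strand.

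FOXD4, a forkhead transcription factor, had 1.53, 1.23, 1.05 and 1.53 TPM in RNA-seq and 58.6 and 70.3 TPM in PRO-seq, a log2 half-life of -4.95 (edgeR adjusted p = 3.1e-13). It belongs to a family of near-identical copies, so reads may be split between them and its level is uncertain. NRARP is an ankyrin-repeat protein of the Notch pathway. It had 10.7, 8.21, 7.83 and 8.21 TPM in RNA-seq and 290 and 303 TPM in PRO-seq. Its log2 half-life was -4.43 (spread 0.21, edgeR adjusted p = 3.2e-22). In TPM the 2 kinds of library did not overlap for NRARP or PSPN. How many of all TUs show such a gap was not counted, and 50.0% of them were called below and 40.4% above. The upstream window of NRARP, printed above, holds a TATA motif, an NF-Y motif and 4 GC boxes.

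At the upper end stood EID1, UQCRHL and HPS6. EID1 is an inhibitor of the EP300 acetyltransferase and of differentiation. Its RNA-seq TPM was 504, 517, 496 and 524, the highest of the nuclear members, and its PRO-seq TPM 66.9 and 83.9 from 18 and 23 counts. The log2 half-life was 3.40 (spread 0.23, edgeR adjusted p = 7.4e-21). Every RNA-seq value was above both PRO-seq values in TPM, the reverse of NRARP and with the same limit. EID1, like PSPN, is overlapped on the opposite strand by another counted transcript, and the effect of this was not tested. Members with no overlap ran from -4.95 to 2.00.

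UQCRHL is an intronless copy of UQCRH, a subunit of respiratory complex III. It had 94.0, 79.2, 92.6 and 87.5 TPM in RNA-seq and 29.5 and 38.6 TPM in PRO-seq, a log2 half-life of 2.00 (edgeR adjusted p = 3.0e-08). Reads of the spliced parent mRNA may be assigned to the copy, so this value is uncertain. HPS6, a subunit of the BLOC-2 complex of lysosome-related organelles, had 24.1, 21.9, 25.9 and 24.1 TPM in RNA-seq and 11.5 and 22.5 TPM in PRO-seq, a log2 half-life of 1.12 (spread 0.70, edgeR adjusted p = 0.0023). It was not called without PRO-seq replicate 1 (edgeR adjusted p = 0.098). Its PRO-seq values rest on 5 and 10 counts.

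**Figure D3:**
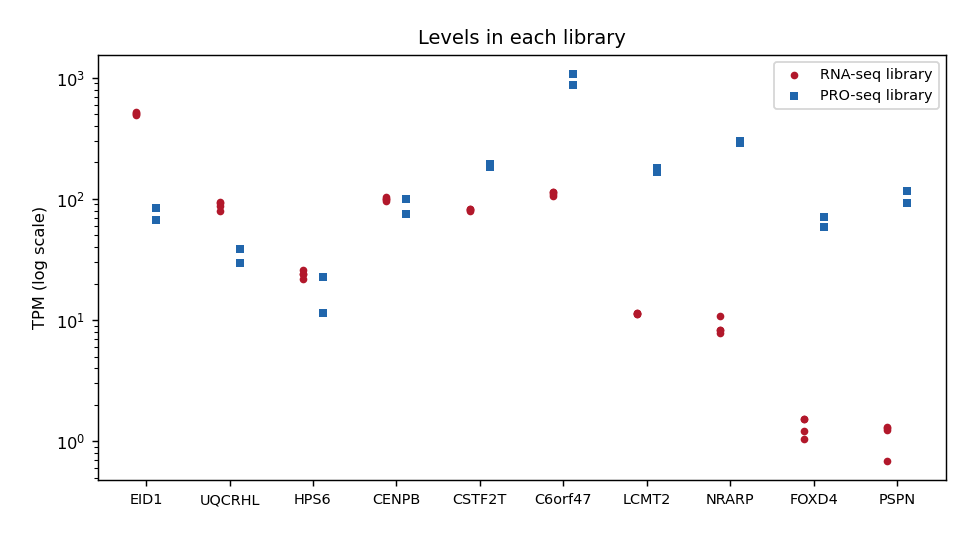
TPM (y axis, log scale) of 10 members in each of 4 RNA-seq libraries (red circles) and 2 PRO-seq libraries (blue squares). For EID1 the RNA-seq values are 496 to 524 and the PRO-seq values 66.9 and 83.9, and for NRARP the order is reversed, with 7.83 to 10.7 against 290 and 303.

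In the forkhead, SOX and C/EBP and MAF families, each member past the thresholds was called below the median mRNA. These were few, and 77.4% of all members past the thresholds and 50.0% of all TUs tested were called below too. Of 14 forkhead factors 2 passed the thresholds and both were called below, FOXD4 and FOXL2, which acts in ovarian development (log2 half-life -2.63). Of 8 SOX factors 1 passed, SOX12, at -3.22. SOX12 had 6.57 to 8.85 TPM in RNA-seq and 109 and 115 TPM in PRO-seq. CEBPB, a basic leucine zipper factor of myeloid and metabolic genes, stood at -1.43 with 20.4 to 25.9 TPM in RNA-seq and 87.6 and 113 TPM in PRO-seq. None of the 4 POU factors passed. ZBTB42, a zinc finger repressor and the only one of 5 of its kind to pass, lay at -0.11 and was not called (edgeR adjusted p = 0.68).

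Of 17 other transcription regulators 4 passed, with 3 called below and none above, beside 77.4% and 7.53% of all members past the thresholds. PURB, which binds purine-rich DNA and RNA, had the lowest value, -2.96, with 11.6 to 13.2 TPM in RNA-seq and 143 and 148 TPM in PRO-seq. Its relative PURA lay at -1.16, and IRF2BPL, an IRF2-binding corepressor relative, at -1.75. IRF2BP1 lay at -0.07 and was not called (edgeR adjusted p = 0.78).

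The 33 proteins of chromatin, transcription and genome maintenance had 15 past the thresholds, 12 called below and 3 above, with a median of -1.47. Over all members past the thresholds the shares were 77.4% below and 7.53% above. HEXIM1, an inhibitor of the elongation kinase P-TEFb, and FANCF, of the Fanconi anaemia core complex, both stood at -1.47. PGBD4 and TIGD1, derived from transposases, were at -2.58 and -2.31. Above the median mRNA, beside EID1, were THAP11, a zinc-binding transcription factor, at 0.95 and CENPB, which binds satellite DNA at centromeres, at 0.82. CENPB rested on 3923 RNA-seq and 87 PRO-seq counts and was called with an edgeR adjusted p of 3.4e-06.

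RNA-binding, RNA-processing and translation factors had 9 of 16 past the thresholds, 7 called below and 2 not called, with a median of -1.63. The share called below was 77.4% over all members past the thresholds. PNMA1, a neuronal antigen of retrotransposon origin, was lowest at -2.75, with 15.3 to 19.0 TPM in RNA-seq and 159 and 199 TPM in PRO-seq. HNRNPA0, which binds AU-rich RNA, stood at -1.89, RBM15B, a cofactor of the m6A methyltransferase, at -1.79 and EXOSC6, a subunit of the RNA exosome, at -1.38. ZCCHC3, a zinc-knuckle protein of nucleic acid sensing, lay at -0.24 and was not called.

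The tRNA, ribosome assembly, folding and selenium group had 6 of 16 past the thresholds, 5 called below and 1 above. Beside this, 77.4% of all members past the thresholds were called below and 7.53% above. LCMT2, which makes the modified base wybutosine in tRNA, had 11.1 to 11.4 TPM in RNA-seq and 166 and 180 TPM in PRO-seq. Its log2 half-life was -3.30 (spread 0.08, edgeR adjusted p = 7.5e-25). SEPHS2, the selenophosphate synthetase, stood at -3.26. RRS1, a ribosome assembly factor, lay at 0.90 with 47 to 57 TPM in RNA-seq and 32.2 and 58.0 TPM in PRO-seq, from 6 and 11 PRO-seq counts. In TPM, before centring on the median mRNA, the RNA-seq and PRO-seq values of RRS1 overlapped. Another counted transcript covers RRS1 in part on the same strand, and it was not called without PRO-seq replicate 1 (edgeR adjusted p = 0.22).

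All 8 ubiquitin ligase and BTB adaptor members that passed, of 15, were called below, with a median of -1.63. The share called below was 77.4% over all members past the thresholds and 50.0% over all TUs tested. SOCS1, which turns off cytokine signalling through JAK kinases, was lowest of the 8 at -2.85. It had 5.58 to 6.73 TPM in RNA-seq and 29.6 and 106 TPM in PRO-seq. The PRO-seq libraries differed by more for SOCS1 than for most members (spread 1.31), and its log2 value was -1.65 without PRO-seq replicate 2 and -3.47 without PRO-seq replicate 1. FEM1A, a CUL2 substrate receptor, stood at -1.68, and the CUL3 adaptors KBTBD7 and KBTBD6 at -1.03 and -0.60. KBTBD6 was not called without PRO-seq replicate 1 (edgeR adjusted p = 0.15).

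All 6 signalling members that passed, of 20, were also called below, between -2.35 and -1.43, beside 77.4% of all members past the thresholds. PPP1R3D, which targets a phosphatase to glycogen, was at the lower end, and the small GTPase RAP2B at the upper end with 31.0 to 33.2 TPM in RNA-seq and 141 and 128 TPM in PRO-seq. FRAT1 and FRAT2, which bind the kinase GSK3, stood at -2.12 and -1.48, and the small GTPase RHOB at -1.78. Of 37 seven-transmembrane receptors only 2 passed. The Wnt receptor FZD1 was called below at -1.82, and P2RY1, a receptor for ADP, lay at -0.12 (edgeR adjusted p = 0.31).

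The membrane, lipid and glycan group had 13 of 28 members past the thresholds, 8 called below, 2 above and 3 not called, with a median of -0.74. Among all members past the thresholds 77.4% were called below and 7.53% above. SFT2D3, a vesicle transport protein, was lowest at -2.50. EXOC8, a subunit of the exocyst that tethers secretory vesicles, was called above at 0.40, and the amino acid sensing GTPase RRAGA lay at 0.74 with 5 PRO-seq counts and was not called. Both glycosyltransferase and sulfotransferase members that passed were called below, as were 77.4% of all members past the thresholds. CHST14, which sulfates dermatan, stood at -2.41, and MGAT2, of N-glycan branching, at -0.40. MGAT2 moved to -0.07 and was not called with 500 bp in place of 1000 bp taken off the PRO-seq span (edgeR adjusted p = 0.60). Without PRO-seq replicate 1 its log2 value was -0.37.

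The retrocopy list had 3 of 17 members past the thresholds, with 1 called below and 2 not called. UQCRHL, also an intronless copy, was not on this list and was called above. Over all members past the thresholds 77.4% were called below and 7.53% above. CSTF2T, a copy of the polyadenylation factor gene CSTF2, lay at -0.58 with 79.5 to 82.7 TPM in RNA-seq and 185 and 193 TPM in PRO-seq. With at least 1 summed count and no TPM thresholds CSTF2T moved to 0.08 and was not called (edgeR adjusted p = 0.44). GLUD2, a copy of the glutamate dehydrogenase gene, lay at 0.28 (edgeR adjusted p = 0.44), with the same limit on shared reads as UQCRHL. Of 5 heat shock proteins and co-chaperones only DNAJC30, of mitochondria, passed, at -2.74. HSPA1A had 4570 RNA-seq counts but 7 PRO-seq counts, and HSPA1B 3673 and 0. These stress-induced HSP70 genes are near-identical copies, and their values are uncertain.

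The 2 members of the mitochondrial genome had the highest PRO-seq TPM. MT-CO1, a subunit of cytochrome oxidase, had 563 to 611 TPM in RNA-seq and 16597 and 15280 TPM in PRO-seq and a log2 half-life of -4.12. MT-ND5, a subunit of complex I, had 271 to 291 TPM in RNA-seq and stood at -3.79. They are made by another polymerase in another compartment, and the median of the 91 nuclear members was -1.61. Among nuclear members C6orf47, a gene of the major histocompatibility region, led in PRO-seq with 870 and 1076 TPM, against 106 to 115 TPM in RNA-seq and a log2 half-life of -2.49.

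**Figure D4:**
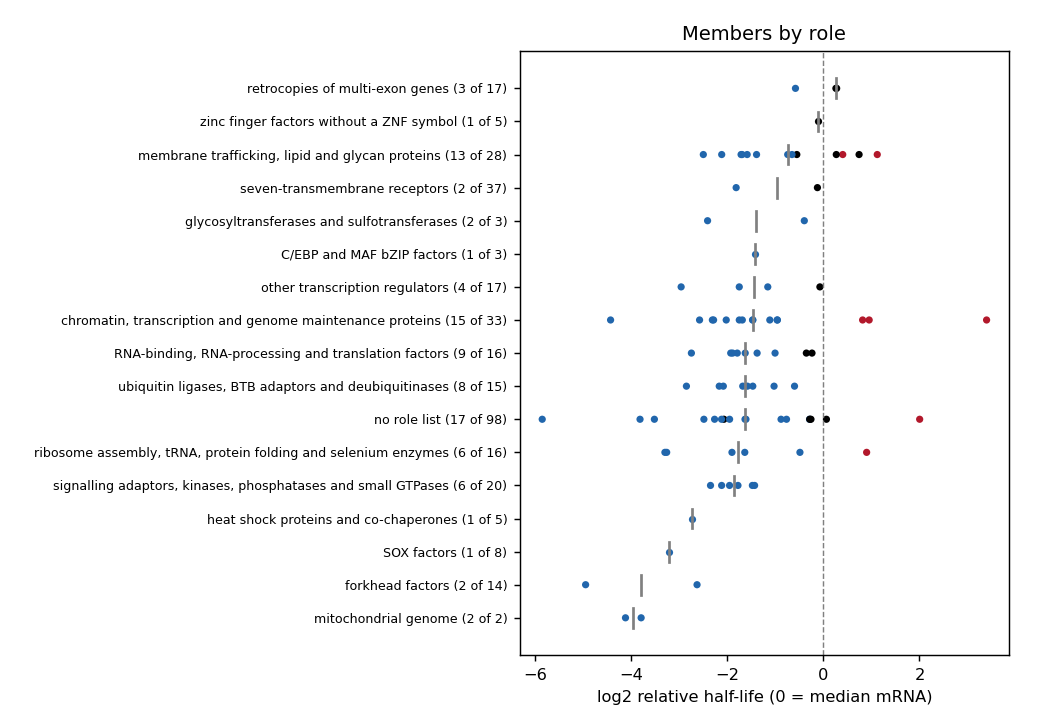
Log2 relative half-life (x axis, 0 is the median mRNA) of the 93 members by role (y axis, with the number past the thresholds of all members in the role). Blue points were called below, red points above and black points not called by edgeR, and grey bars mark each role's median. No ubiquitin ligase or signalling member reaches 0, and membrane trafficking members lie on both sides. Of all 93 members 77.4% were called below, so a role with few members may hold only blue points.

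The 98 members in no role list had 17 past the thresholds, 12 called below, 1 above (UQCRHL) and 4 not called, with a median of -1.63. The shares over all members past the thresholds were 77.4% below and 7.53% above. EPM2AIP1, which binds the phosphatase laforin, stood at -2.12 from 3665 RNA-seq and 833 PRO-seq counts. ATXN7L3B lay at -0.29 and was called below (edgeR adjusted p = 0.017).

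In 15 members PRO-seq was above 10 TPM while RNA-seq was not above 1 TPM, so that they have no half-life here. FOXD4L5 had 69.7 and 72.0 TPM in PRO-seq from 38 and 40 counts and no RNA-seq count in any library. NPB, the neuropeptide B precursor, had 33.5 and 52.6 TPM in PRO-seq and at most 0.478 TPM in RNA-seq. FOXD4L1 had 41.6 and 38.3 TPM in PRO-seq and at most 0.828 TPM in RNA-seq. CLDN9, a tight junction claudin, had 6.63 and 39.0 TPM in PRO-seq from 1 and 6 counts, and WFIKKN1, a protease inhibitor that binds myostatin, 21.9 and 23.5 TPM. The reverse pattern, above 1 TPM in RNA-seq and not above 10 TPM in PRO-seq, was seen in 37 members, of which 22 had no PRO-seq count.

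Over the 181 members with counts in both assays, Spearman's rho between PRO-seq and RNA-seq TPM was 0.85, against 0.84 over 14740 mRNAs with 2 or more exons. Over the 93 past the thresholds it was 0.62. These are correlations across genes, which share libraries and length scaling. Within the single-exon class, genes with more nascent signal also had more RNA, at a lower level of RNA for the same signal.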

How the data were processed

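The authors deposited raw HTSeq counts per transcript for each library, as whole-number counts with no normalization. Per the labels and the submitters' processing notes, the tools were cutadapt for trimming, HISAT2 for alignment to GRCh38 and HTSeq for counting. The sources used here give no versions and no strand setting. Among the 42371 Ensembl identifiers in each library, 37339 occur in GENCODE v44 lifted to GRCh37, and a further 801 LRG rows held 0 counts. Reads that HTSeq did not assign to a single TU, ambiguous ones included, made up 66.5% to 68.6% of the RNA-seq counts and 86.5% and 88.6% of the PRO-seq counts.

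Summed counts were scaled to TPM by exon length (RNA-seq) or by the span less 1000 bp, 500 bp at each end (PRO-seq). RNA-seq and PRO-seq were compared with edgeR 4.0.16 (R 4.3.3) in 1 fit over 9929 mRNA, lincRNA, antisense and pseudogene TUs, with length offsets, TMM and Benjamini-Hochberg adjustment, centred on the median mRNA. The steps were tested on simulated data. Spread is the square root of the sum of the variances of log2 TPM, 1 taken within RNA-seq and 1 within PRO-seq.

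The members and lists were chosen with earlier results of these data known. Named members are the 3 lowest and 3 highest half-lives called on the same side with replicates 1 and with replicates 2, the 3 highest in each assay, the highest and lowest of each role, and the 5 highest in PRO-seq without RNA-seq; others were named after their values were seen, as examples of their role. 3 role lists were added after the member names were seen. Alternatives were other length corrections, thresholds, pseudocount and TPM averaging, DESeq2, library totals, a 2-fold test, a replicate block, leaving out each library, and subsets of members. RNA-seq and PRO-seq share replicate numbers 1 and 2, and the differences between replicates 1 and 2 of the 2 assays correlated at -0.01 over 9841 TUs. With all cells from 1 flask this cannot tell whether libraries of the same number were paired, and the labels do not say.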

Additional observations from a re-analysis of the deposited data

Results flagged for a closer look

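Dixon's criterion was applied over the 4 RNA-seq libraries to 40 sets of values, and 3 had 1 library far from the others. Chance flags about 1 in 20. The gap of the outlying library, as a share of the range, was 0.905 for PSPN (0.685 TPM in replicate 3, from 7 counts, against 1.25 to 1.31), 0.867 for NRARP (10.7 TPM in replicate 1 against 7.83 to 8.21) and 0.854 for PURB (13.2 TPM in replicate 4 against 11.6 to 11.8). All 3 members were called below the median mRNA in every fit that left out 1 library.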

How the results depend on the processing

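Against 7 members above, 72 below and a median of -1.63, leaving out 1 library gave 5 to 7 above, 67 to 72 below and medians from -1.64 to -1.49, the last without PRO-seq replicate 1. Another length correction took 500 bp in place of 1000 bp off the PRO-seq span, with the counts unchanged. It gave 11 above and a median of -1.38. With at least 1 summed count and no TPM thresholds, over 181 members in place of 93, there were 22 above, 85 below and a median of -1.39. A pseudocount of 1 TPM gave a median of -1.51. The first 2 settings moved the ratio of the median mRNA itself by -0.22 and -0.63. The 2-fold test left 2 above. Members spanning at least 3000 bp had 1 above and 42 below of 48, and those with no counted transcript on either strand, a subset added after seeing the data, 4 above and 40 below of 56. The replicate block gave 6 above and 72 below, so that neither count moved by over 1.5 times. DESeq2 gave 6 and 72.

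Of 31 named members 10 changed call or sign under some setting. With 500 bp in place of 1000 bp taken off the PRO-seq span, ZCCHC3 moved to 0.077, IRF2BP1 to 0.28 and ZBTB42 to 0.087. With at least 1 count, ZCCHC3 moved to 0.43, MGAT2 to 0.27, IRF2BP1 to 0.59, CSTF2T to 0.080, P2RY1 to 0.54, KBTBD6 to 0.060 and ZBTB42 to 0.55. With at least 10 counts, IRF2BP1 moved to 0.048 and ZBTB42 to 0.0049. Leaving out 1 library, IRF2BP1 ran from -0.28 to 0.18 and P2RY1 from -0.27 to 0.036. Apart from the median shift given, the cause was not tested. PRO-seq counts limit single members: RRAGA had 5, and members under 10 PRO-seq TPM have no half-life here.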
